A study of Yarrowia lipolytica with 12 samples.

Results

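The genes described here are those higher in wild-type *Yarrowia lipolytica* carrying a plasmid called 4NAG than in wild type with the empty vector, called raised below. They are 109 of the 6400 genes counted, and 2.02% of the 5400 genes with a mean of at least 5 CPM in the wild-type libraries. A gene was taken when its lowest CPM in wild-type cells carrying 4NAG lay above its highest CPM in wild-type cells carrying the vector, its mean with 4NAG was at least 1.3 times the mean with the vector, and its mean over these 6 libraries was at least 5 CPM. CPM is the count of a gene per 1000000 counts of its library. *YALI0F02211* and *YALI0D10967* were left out by name.

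The series holds 12 RNA-Seq libraries, 3 for each of 4 strain and plasmid combinations, all grown in liquid YNB-GlcNAc medium with uracil at 30 °C. The groups were Yl*ngs1*Δ with pYL27-4NAG (Yl*ngs1*Δ/4NAG), Yl*rep1*Δ with pYL27-4NAG (Yl*rep1*Δ/4NAG), wild type with pYL27-4NAG (WT/4NAG) and wild type with the empty pYL27 (WT/Vec). All strains derive from PO1a, a *leu2 ura3* strain. pYL27 is a centromeric plasmid with Yl*LEU2*, so all 4 groups carry that marker, and pYL27-4NAG adds the coding sequences of Yl*NAG1*, Yl*DAC1*, Yl*NAG5* and Yl*NGT1*, each behind the constitutive Yl*ACT1* promoter. In the comparison of WT/4NAG with WT/Vec the cells therefore differed in extra copies of 4 genes. The comparisons of both deletion strains with WT/4NAG held the plasmid constant. The paper states that the deletion strains with this plasmid grew slower than wild-type cells in liquid GlcNAc medium and formed short filaments there. It allows that the slow growth may affect expression. The part of growth rate and cell form in the levels below was not tested. Separate cultures are not stated for the 3 replicates, so the p-values below speak only of variation among the libraries at hand, which may be technical.

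*N*-acetylglucosamine (GlcNAc) is an amino sugar of chitin and bacterial cell walls that many yeasts use as a carbon source. Ngt1 imports it, the kinase Nag5 phosphorylates it, Dac1 removes the acetyl group, which is released as acetate, and Nag1 removes the amino group to give fructose-6-phosphate and ammonium. In *Candida albicans* these genes are switched on by the Ndt80-family transcription factor Rep1 together with the acetyltransferase Ngs1, the GlcNAc sensor. Carbon from the sugar then enters glycolysis at fructose-6-phosphate and reaches pyruvate, which pyruvate decarboxylase directs toward fermentation, while malic enzyme makes pyruvate from malate.

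The values that chose the genes are given as a description. Their ratio of mean WT/4NAG to mean WT/Vec ran between 1.3 and 2.58, with a median of 1.40, and 81 of 109 stayed under 1.5. The ratio reached 2 in 5 genes. Since the rule used these libraries, no test of this contrast is given. In all, 663 genes at or above 5 CPM had 3 WT/4NAG libraries above 3 WT/Vec libraries, and most of them changed by less than the rule asked. Of the 6043 genes kept by a filter on low counts, 11.7% were separated in this direction and 19.6% in the other. Just inside the ratio lay *YALI0D16709* at 1.3, *YALI0B17996* at 1.303 and *YALI0E34441* at 1.305, and just outside lay *YALI0D19382* at 1.299, *YALI0C07656* at 1.297 and *YALI0E22286* at 1.296. *YALI0B17996*, for example, had 475, 578 and 509 CPM in WT/4NAG and 369, 423 and 406 CPM in WT/Vec. Together the 109 genes took 4.15%, 4.84% and 4.49% of all counts in WT/4NAG, against 3.15%, 3.24% and 2.84% in WT/Vec.

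**Figure D1:**
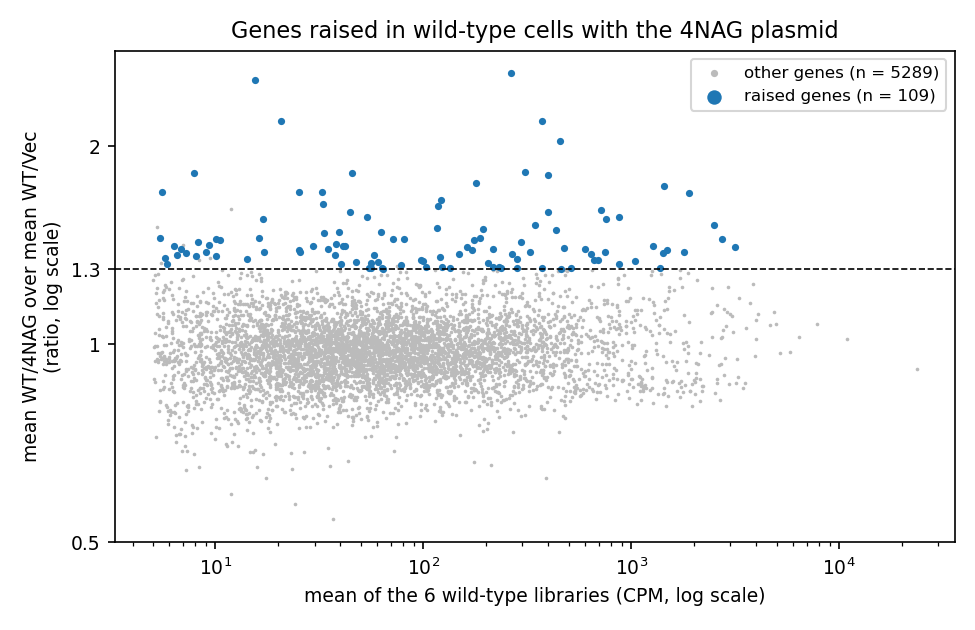
Ratio of mean WT/4NAG to mean WT/Vec (vertical, log scale) against the mean CPM of the 6 wild-type libraries (horizontal, log scale), 1 point per gene, with the 109 raised genes in blue and a dashed line at the ratio of 1.3. The raised genes spread over levels between 5.44 and 3140 CPM, and 5 of them reach a ratio of 2.

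What the genes encode was known only in part. Only genes that the study listed as changed in a deletion strain carry a description, which is so for 39 of the 109, and those 39 were thus chosen on these same deletion libraries. The other 70 are given by their systematic names. The 109 genes had a median of 116.4 CPM over the wild-type libraries and 56 of them had over 100 CPM.

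Library totals were 17585457 to 17773619 counts in Yl*ngs1*Δ/4NAG, 15667204 to 22321047 in Yl*rep1*Δ/4NAG, 18863469 to 21648468 in WT/4NAG and 20335614 to 22650213 in WT/Vec. The deleted genes went against some labels. Yl*NGS1* was counted at 0.0563, 15.8 and 31.6 CPM in the libraries labelled Yl*ngs1*Δ/4NAG 1, 2 and 3, which is 0.0779%, 21.8% and 43.7% of its mean in WT/4NAG. Yl*REP1* was counted at 20.4, 12.5 and 70.8 CPM in the libraries labelled Yl*rep1*Δ/4NAG, which is 24.8%, 15.1% and 86.0% of its mean in WT/4NAG. The names Yl*ngs1*Δ/4NAG and Yl*rep1*Δ/4NAG stand throughout for the libraries so labelled. Library 3 of either deletion strain held the most transcript of the deleted gene, and each count of calls is therefore also given without it. Yl*DAC1*, carried by the plasmid, had 631, 617 and 623 CPM in Yl*ngs1*Δ/4NAG, 602, 887 and 1457 CPM in Yl*rep1*Δ/4NAG, 1263, 1409 and 1270 CPM in WT/4NAG and 1106, 1151 and 1100 CPM in WT/Vec. Its ratio of 1.17 in wild-type cells left it outside the raised genes, and the other 3 plasmid genes are not analysed here.

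The 5 genes with the highest ratio are shown first because 4 of them behaved alike in the deletion strains. *YALI0E22088* had 11.7, 75.8 and 521 CPM in Yl*ngs1*Δ/4NAG, 96.1, 169 and 719 CPM in Yl*rep1*Δ/4NAG, 347, 435 and 362 CPM in WT/4NAG and 155, 156 and 132 CPM in WT/Vec. Library 3 of both deletion strains lay above every WT/4NAG library, while both library 1 values lay below every WT/Vec library. *YALI0D03740*, described as weakly similar to *YALI0E22088* and placed by the study among cell wall proteins, had 0.338, 0.455 and 26.2 CPM in Yl*ngs1*Δ/4NAG, 1.28, 16.6 and 59.5 CPM in Yl*rep1*Δ/4NAG, 21.6, 36.0 and 27.5 CPM in WT/4NAG and 13.9, 11.1 and 14.0 CPM in WT/Vec. Libraries 1 and 2 of Yl*ngs1*Δ/4NAG were close to 0 there and library 3 reached the range of WT/4NAG, which is the widest spread of any of the 109 genes, 77.6 times between the highest and the lowest Yl*ngs1*Δ/4NAG library and 46.6 times in Yl*rep1*Δ/4NAG.

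*YALI0A00154* had 27.8, 138 and 838 CPM in Yl*ngs1*Δ/4NAG, 181, 327 and 1453 CPM in Yl*rep1*Δ/4NAG, 499, 760 and 578 CPM in WT/4NAG and 308, 345 and 249 CPM in WT/Vec. *YALI0E19426* had 20.1, 122 and 552 CPM in Yl*ngs1*Δ/4NAG, 179, 187 and 788 CPM in Yl*rep1*Δ/4NAG, 441, 612 and 478 CPM in WT/4NAG and 237, 267 and 196 CPM in WT/Vec. In both genes Yl*ngs1*Δ/4NAG libraries 1 and 2 lay below every WT/Vec library, Yl*rep1*Δ/4NAG library 3 lay above every WT/4NAG library, and the groups overlapped. With such a spread, none of these 4 genes passed against WT/4NAG in either strain, where passing means an adjusted p under 0.05 by edgeR's quasi-likelihood test and at least a 2-fold change. For *YALI0E22088* the log2 fold change against WT/4NAG was -0.80 ± 1.11 (SE), edgeR adjusted p = 0.652 in Yl*ngs1*Δ/4NAG and -0.28 ± 0.66 (SE), edgeR adjusted p = 0.81 in Yl*rep1*Δ/4NAG. Without library 3, *YALI0E22088* fell in both strains, with a log2 fold change of -3.10 ± 0.80 (SE), edgeR adjusted p = 0.0385 in Yl*ngs1*Δ/4NAG and -1.60 ± 0.21 (SE), edgeR adjusted p = 0.00663 in Yl*rep1*Δ/4NAG. *YALI0E19426* and *YALI0A00154* passed likewise in both strains without library 3, and *YALI0D03740* passed in Yl*ngs1*Δ/4NAG alone, at -6.18 ± 0.39 (SE), edgeR adjusted p = 0.000789.

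*YALI0E33891* was the exception. It had 22.6, 17.4 and 26.3 CPM in Yl*ngs1*Δ/4NAG, 18.9, 30.3 and 13.2 CPM in Yl*rep1*Δ/4NAG, 19.1, 24.7 and 23.0 CPM in WT/4NAG and 10.6, 8.43 and 7.47 CPM in WT/Vec. All 6 deletion libraries lay above every WT/Vec library, and they overlapped WT/4NAG in both strains. Against WT/4NAG the log2 fold change was 0.01 ± 0.20 (SE), edgeR adjusted p = 0.97 in Yl*ngs1*Δ/4NAG and -0.16 ± 0.27 (SE), edgeR adjusted p = 0.742 in Yl*rep1*Δ/4NAG. Against WT/Vec, whose libraries helped to choose the gene, it was higher in Yl*ngs1*Δ/4NAG at 1.38 ± 0.22 (SE), edgeR adjusted p = 0.00787 (edgeR adjusted p = 0.0516 without WT/Vec library 2), and Yl*rep1*Δ/4NAG gave 1.22 ± 0.30 (SE), edgeR adjusted p = 0.0742. Without library 3 of the deletion strain it passed as higher than WT/Vec in both. It then gave 1.18 ± 0.19 (SE), edgeR adjusted p = 0.0105 in Yl*ngs1*Δ/4NAG and 1.48 ± 0.22 (SE), edgeR adjusted p = 0.0128 in Yl*rep1*Δ/4NAG. *YALI0E33891* has no description in the sources used here.

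**Figure D2:**
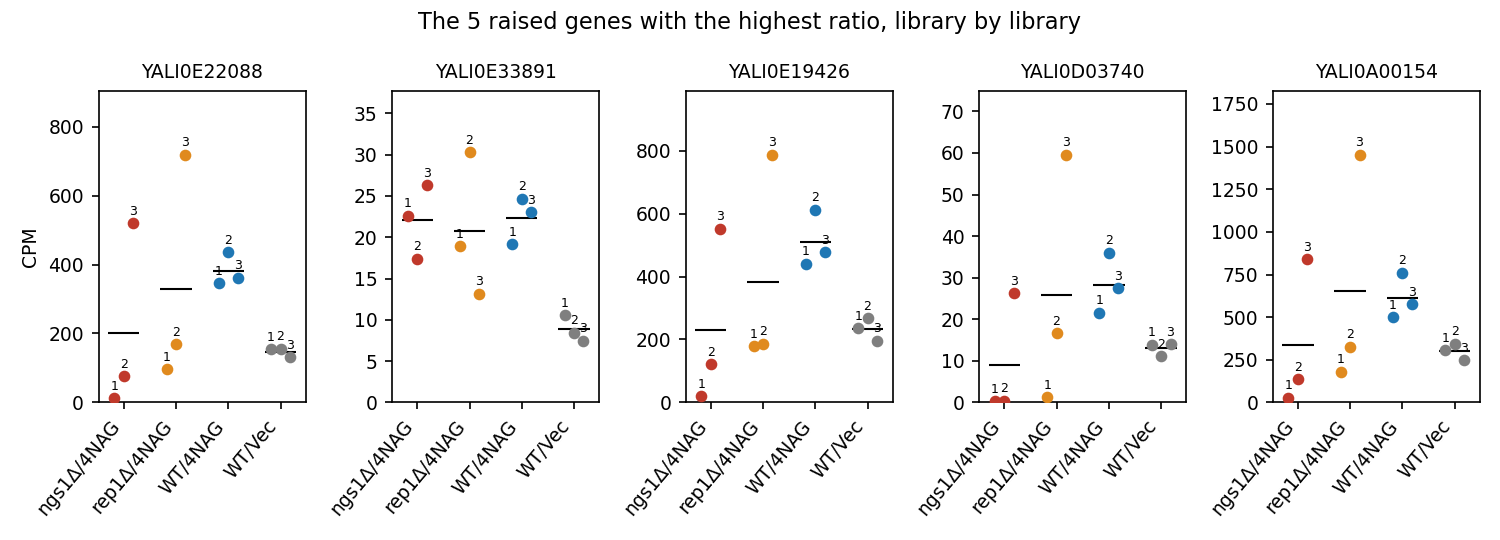
CPM of the 5 raised genes with the highest ratio in each of the 12 libraries, with the replicate number beside each point and the group mean as a bar. In *YALI0E22088*, *YALI0E19426*, *YALI0D03740* and *YALI0A00154* library 3 of each deletion strain stands high and library 1 low, and in *YALI0E33891* all 6 deletion libraries lie above the WT/Vec libraries.

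Over all 109 genes the deletion strains had lower medians than WT/4NAG. The median log2 fold change against WT/4NAG was -0.59 in Yl*ngs1*Δ/4NAG and -0.58 in Yl*rep1*Δ/4NAG, beside 0.02 and 0.01 over all genes tested. The WT/4NAG libraries also chose the genes, which by itself favours lower values in a strain set against them. Against WT/Vec, whose libraries favour the opposite, the median was -0.06 in Yl*ngs1*Δ/4NAG and -0.02 in Yl*rep1*Δ/4NAG, beside 0.01 in both over all genes tested. The 80 genes lower in WT/4NAG than in WT/Vec under the same rule turned round had medians against WT/4NAG of 0.29 in Yl*ngs1*Δ/4NAG and 0.32 in Yl*rep1*Δ/4NAG. In bulk samples fewer cells of a type and less RNA per cell cannot be told apart.

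In Yl*ngs1*Δ/4NAG, 22 of 109 genes passed as lower than WT/4NAG (20.2%, beside 2.3% of all genes tested) and 3 as higher (beside 5.36%). In Yl*rep1*Δ/4NAG, 3 genes passed as lower (beside 0.331%) and 1 as higher (beside 1.06%). Without library 3 the counts were 41 lower in Yl*ngs1*Δ/4NAG (37.6%, beside 3.82%) and 3 higher (beside 6.33%), and in Yl*rep1*Δ/4NAG 36 lower (33%, beside 2.68%) and 3 higher (beside 4.43%). All 22 and all 3 genes that passed as lower belong to the 39 described ones, which the study chose on these libraries. Of the 70 genes with no description, 0 passed in either strain by edgeR or by DESeq2, which called 2.76% of all genes lower and 5.95% higher in Yl*ngs1*Δ/4NAG and 1.42% lower and 3.59% higher in Yl*rep1*Δ/4NAG. The study, at the same thresholds on these libraries, did not list those 70 as changed. Few calls and small changes among them were thus favoured in advance. At an unadjusted p under 0.05 and any fold, 12 of the 70 were lower in Yl*ngs1*Δ/4NAG (17.1%, beside 14.9% of all genes tested) and 6 higher (8.57%, beside 19%). In Yl*rep1*Δ/4NAG 20 were lower (28.6%, beside 10.4%) and 2 higher (2.86%, beside 14%). Their median log2 fold change against WT/4NAG was -0.30 in Yl*ngs1*Δ/4NAG and -0.33 in Yl*rep1*Δ/4NAG, against -1.31 and -1.09 for the described genes. Without library 3, 11 of the 70 passed as lower in Yl*ngs1*Δ/4NAG and 8 in Yl*rep1*Δ/4NAG.

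The 3 Yl*ngs1*Δ/4NAG libraries lay below the 3 WT/4NAG libraries for 59 genes (54.1%, beside 22.3% of all genes tested) and above them for 9 (beside 19.7%). The 3 Yl*rep1*Δ/4NAG libraries lay below for 50 genes (45.9%, beside 13.8%) and above for 5 (beside 16.4%). The WT/4NAG libraries chose the genes, which favours places below them. Against WT/Vec, which favours the opposite, the Yl*ngs1*Δ/4NAG libraries lay below for 24 genes (22%, beside 23.8%) and above for 25 (22.9%, beside 18.7%). The Yl*rep1*Δ/4NAG libraries lay below WT/Vec for 15 genes (13.8%, beside 15.2%) and above for 19 (17.4%, beside 13.8%). The number of calls moved when 1 library was left out, in both strains. Such a fit also has fewer libraries to test with, so a lost call need not rest on the library left out. The share of all genes was not taken for the fits that follow, so they do not show whether other genes moved alike. In Yl*rep1*Δ/4NAG, 19 genes passed as lower without library 1, and 0 did without any 1 of the 3 WT/4NAG libraries. In Yl*ngs1*Δ/4NAG, 12 passed without WT/4NAG library 2 and 14 without WT/4NAG library 3, and 12 of the 22 passed under each of 11 alternative fits, among them Yl*PDC1*, Yl*SSU1*, Yl*OAR1*, Yl*OFI1* and the genes similar to *CTT1*, *FDH1* and *AMS1*.

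The mean of Yl*ngs1*Δ/4NAG lay below every WT/Vec library for 53 of the 109 genes, within the wild-type range for 38 and above every WT/4NAG library for 18. The mean of Yl*rep1*Δ/4NAG lay below for 46, within for 47 and above for 16. Over all genes of at least 5 CPM, 38.2% of Yl*ngs1*Δ/4NAG means and 28.8% of Yl*rep1*Δ/4NAG means lay below all 6 wild-type libraries and 32.5% and 35.5% above them. Both means lay below every WT/Vec library for 37 genes (33.9%, beside 24.5% of all genes of at least 5 CPM). For 9 genes (8.26%, beside 7.56%) all 6 deletion libraries lay below all 6 wild-type libraries, a share near that of all genes: *YALI0A17020*, *YALI0C11968*, *YALI0C15466*, *YALI0C23078*, *YALI0D10131*, *YALI0E06589*, *YALI0E24167*, *YALI0E28259* and *YALI0F29975*. For 4 genes (3.67%, beside 8.17%), *YALI0B03542*, *YALI0C04455*, *YALI0C23452* and *YALI0F03795*, all 6 lay above.

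Against WT/Vec, 10 genes passed as higher in Yl*ngs1*Δ/4NAG (beside 5.53% of all genes) and 10 as lower (9.17%, beside 1.75%). In Yl*rep1*Δ/4NAG 4 passed as higher (beside 1.52%) and 1 as lower (beside 0.248%). Without library 3, the counts in Yl*ngs1*Δ/4NAG were 9 higher (beside 6.73%) and 19 lower (beside 2.77%), and those in Yl*rep1*Δ/4NAG 8 higher (beside 4.59%) and 9 lower (beside 1.69%). The 10 genes lower in Yl*ngs1*Δ/4NAG than in WT/Vec thus stood below the level of cells with no extra GlcNAc genes. They were *YALI0C11968*, *YALI0C15466*, *YALI0D10131*, *YALI0E14256*, *YALI0E24167*, *YALI0E28259*, *YALI0E31845*, *YALI0E34265*, *YALI0F01408* and *YALI0F29975*. Of these, *YALI0D10131*, *YALI0E14256*, *YALI0E24167*, *YALI0E34265* and *YALI0F29975* passed under each of 11 alternative fits. The calls of the other 5 were lost under 3 to 6 of them, among these without WT/Vec library 1 and without WT/Vec library 2.

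Among genes of carbon and energy metabolism, Yl*PDC1* (*YALI0D10131*) encodes pyruvate decarboxylase, which in *Saccharomyces cerevisiae* makes acetaldehyde from pyruvate on the way to ethanol. It had 204, 203 and 383 CPM in Yl*ngs1*Δ/4NAG, 237, 383 and 1096 CPM in Yl*rep1*Δ/4NAG, 2243, 2597 and 2282 CPM in WT/4NAG and 1409, 1637 and 1146 CPM in WT/Vec. Every deletion library lay below every wild-type library, with Yl*rep1*Δ/4NAG library 3 the highest of the 6. Yl*PDC1* fell in Yl*ngs1*Δ/4NAG, by a log2 fold change against WT/4NAG of -3.13 ± 0.33 (SE), edgeR adjusted p = 0.00207, and gave -2.12 ± 0.52 (SE), edgeR adjusted p = 0.0776 in Yl*rep1*Δ/4NAG with all libraries. Without library 3 it fell in Yl*rep1*Δ/4NAG too, at -3.01 ± 0.19 (SE), edgeR adjusted p = 0.00177.

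The gene similar to *S. cerevisiae* *MAE1* (*YALI0E18634*), for mitochondrial malic enzyme, which makes pyruvate from malate, had 98.9, 132 and 256 CPM in Yl*ngs1*Δ/4NAG, 153, 190 and 473 CPM in Yl*rep1*Δ/4NAG, 533, 599 and 533 CPM in WT/4NAG and 416, 431 and 340 CPM in WT/Vec. Only Yl*rep1*Δ/4NAG library 3 reached the wild-type range. It fell in Yl*ngs1*Δ/4NAG at -1.72 ± 0.39 (SE), edgeR adjusted p = 0.0252, and Yl*rep1*Δ/4NAG gave -1.09 ± 0.40 (SE), edgeR adjusted p = 0.159. The call in Yl*ngs1*Δ/4NAG was lost without any 1 WT/4NAG library or Yl*ngs1*Δ/4NAG library 2 (edgeR adjusted p = 0.0806 to 0.0979). Yl*GPH1* (*YALI0F04169*), for the glycogen phosphorylase that releases glucose-1-phosphate from stored glycogen, had 150, 116 and 229 CPM in Yl*ngs1*Δ/4NAG, 120, 212 and 398 CPM in Yl*rep1*Δ/4NAG, 476, 581 and 488 CPM in WT/4NAG and 296, 311 and 246 CPM in WT/Vec. The 3 Yl*ngs1*Δ/4NAG libraries lay below every wild-type library, while Yl*rep1*Δ/4NAG library 3 lay between WT/Vec and WT/4NAG. Yl*GPH1* fell in Yl*ngs1*Δ/4NAG at -1.60 ± 0.28 (SE), edgeR adjusted p = 0.0109, lost without WT/4NAG library 2 (edgeR adjusted p = 0.0572), and gave -1.15 ± 0.38 (SE), edgeR adjusted p = 0.13 in Yl*rep1*Δ/4NAG. The gene similar to *AMS1* (*YALI0D21890*), for the vacuolar alpha mannosidase that trims mannose from glycans, had 21.9, 17.3 and 20.1 CPM in Yl*ngs1*Δ/4NAG, 17.7, 28.9 and 40.9 CPM in Yl*rep1*Δ/4NAG, 39.2, 48.8 and 46.5 CPM in WT/4NAG and 34.7, 33.4 and 26.6 CPM in WT/Vec. It fell in Yl*ngs1*Δ/4NAG at -1.16 ± 0.14 (SE), edgeR adjusted p = 0.00324 with no overlap with either wild-type group. The *MAE1*-like gene, Yl*GPH1* and the *AMS1*-like gene passed as lower in Yl*rep1*Δ/4NAG too without library 3. They gave -1.75 ± 0.12, -1.70 ± 0.21 and -1.01 ± 0.19 (SE), edgeR adjusted p = 0.00177, 0.00555 and 0.02.

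Yl*OAR1* (*YALI0F29975*), whose orthologs reduce 3-oxoacyl groups in fatty acid synthesis and are needed for respiration, had 3.77, 3.18 and 6.37 CPM in Yl*ngs1*Δ/4NAG, 3.73, 15.8 and 45.7 CPM in Yl*rep1*Δ/4NAG, 79.0, 89.0 and 85.0 CPM in WT/4NAG and 60.0, 64.1 and 50.7 CPM in WT/Vec. The Yl*ngs1*Δ/4NAG libraries held under 10 CPM each, and even the highest Yl*rep1*Δ/4NAG library stayed below the lowest WT/Vec library. Its fall in Yl*ngs1*Δ/4NAG was -4.21 ± 0.30 (SE), edgeR adjusted p = 0.000874 against WT/4NAG and -3.65 ± 0.30 (SE), edgeR adjusted p = 0.00137 against WT/Vec, while Yl*rep1*Δ/4NAG gave -2.04 ± 0.71 (SE), edgeR adjusted p = 0.146 against WT/4NAG. The gene similar to *FDH1* (*YALI0E14256*), for the formate dehydrogenase that oxidizes formate to CO2, had 1.97, 1.19 and 1.35 CPM in Yl*ngs1*Δ/4NAG, 1.65, 5.06 and 15.7 CPM in Yl*rep1*Δ/4NAG, 9.78, 13.8 and 12.0 CPM in WT/4NAG and 9.17, 8.17 and 7.28 CPM in WT/Vec. Yl*rep1*Δ/4NAG library 3 was the highest of all 12 libraries in this gene. It fell in Yl*ngs1*Δ/4NAG at -2.97 ± 0.23 (SE), edgeR adjusted p = 0.00108, and Yl*rep1*Δ/4NAG gave -0.75 ± 0.66 (SE), edgeR adjusted p = 0.51. Yl*OAR1* and the *FDH1*-like gene passed as lower than WT/4NAG in Yl*rep1*Δ/4NAG too without library 3. They gave -3.20 ± 0.51 and -1.895 ± 0.414 (SE), edgeR adjusted p = 0.0117 and 0.0292.

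The aldo-keto reductase gene *YALI0A19910*, similar to the xylose and arabinose reductase gene YJR096W, had 20.7, 91.4 and 170 CPM in Yl*ngs1*Δ/4NAG, 121, 23.5 and 36.2 CPM in Yl*rep1*Δ/4NAG, 199, 215 and 249 CPM in WT/4NAG and 160, 152 and 144 CPM in WT/Vec. Yl*ngs1*Δ/4NAG library 1 and Yl*rep1*Δ/4NAG libraries 2 and 3 were low here, and Yl*rep1*Δ/4NAG library 1, low in the genes above, was the highest of its strain. It passed in neither strain, at -1.15 ± 0.67 (SE), edgeR adjusted p = 0.275 in Yl*ngs1*Δ/4NAG and -1.86 ± 0.61 (SE), edgeR adjusted p = 0.132 in Yl*rep1*Δ/4NAG. The same held without library 3.

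Among genes of membrane, sulfur and iron, Yl*SSU1* (*YALI0E24167*), for a plasma membrane pump that exports sulfite, had 17.7, 15.8 and 16.3 CPM in Yl*ngs1*Δ/4NAG, 17.1, 33.7 and 62.7 CPM in Yl*rep1*Δ/4NAG, 126, 202 and 128 CPM in WT/4NAG and 87.8, 108 and 79.4 CPM in WT/Vec. The Yl*ngs1*Δ/4NAG libraries were close together and far below every wild-type library. Yl*SSU1* fell in Yl*ngs1*Δ/4NAG at -3.18 ± 0.22 (SE), edgeR adjusted p = 0.000724 against WT/4NAG and -2.41 ± 0.15 (SE), edgeR adjusted p = 0.000736 against WT/Vec, and gave -2.08 ± 0.43 (SE), edgeR adjusted p = 0.0581 against WT/4NAG in Yl*rep1*Δ/4NAG. The ferro-O2-oxidoreductase gene *YALI0D06754*, of a family of copper enzymes that oxidize iron for its uptake, had 79.0, 60.0 and 117 CPM in Yl*ngs1*Δ/4NAG, 73.1, 122 and 229 CPM in Yl*rep1*Δ/4NAG, 195, 228 and 195 CPM in WT/4NAG and 151, 148 and 130 CPM in WT/Vec. Here Yl*rep1*Δ/4NAG library 3 reached the top of the WT/4NAG range, while the Yl*ngs1*Δ/4NAG libraries lay below all wild-type ones. It fell in Yl*ngs1*Δ/4NAG at -1.24 ± 0.27 (SE), edgeR adjusted p = 0.0218, with -0.61 ± 0.36 (SE), edgeR adjusted p = 0.332 in Yl*rep1*Δ/4NAG. Without any 1 WT/4NAG library or Yl*ngs1*Δ/4NAG library 2, the call of *YALI0D06754* in Yl*ngs1*Δ/4NAG was lost (edgeR adjusted p = 0.0683 to 0.0935). Yl*SSU1* and *YALI0D06754* passed as lower than WT/4NAG in Yl*rep1*Δ/4NAG too without library 3. They gave -2.65 ± 0.33 and -1.145 ± 0.179 (SE), edgeR adjusted p = 0.00578 and 0.0111.

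Yl*ERG3* (*YALI0D20878*), for the C-5 sterol desaturase of ergosterol synthesis, was 1 of the 3 genes that passed as lower than WT/4NAG in both strains. It had 244, 194 and 276 CPM in Yl*ngs1*Δ/4NAG, 189, 241 and 313 CPM in Yl*rep1*Δ/4NAG, 426, 518 and 524 CPM in WT/4NAG and 287, 339 and 297 CPM in WT/Vec. No deletion library reached WT/4NAG, and Yl*rep1*Δ/4NAG library 3 overlapped WT/Vec. The fall against WT/4NAG was -1.02 ± 0.18 (SE), edgeR adjusted p = 0.0113 in Yl*ngs1*Δ/4NAG and -1.04 ± 0.19 (SE), edgeR adjusted p = 0.0478 in Yl*rep1*Δ/4NAG, whereas against WT/Vec the values were -0.32 ± 0.16 and -0.33 ± 0.18 (SE) and passed in neither. The call in Yl*ngs1*Δ/4NAG was lost without WT/4NAG library 2 or 3 or Yl*ngs1*Δ/4NAG library 1 or 2, where the log2 fold change was -0.97 to -0.91. The call in Yl*rep1*Δ/4NAG was lost when any WT/4NAG library was left out, or Yl*rep1*Δ/4NAG library 1 or 2, with a log2 fold change of -1.13 to -0.93 and edgeR adjusted p = 0.028 to 0.231.

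Of the genes for stress proteins, the one similar to *CTT1* (*YALI0E34265*), for a cytosolic catalase that breaks down hydrogen peroxide, had 10.3, 6.65 and 29.1 CPM in Yl*ngs1*Δ/4NAG, 13.2, 61.5 and 217 CPM in Yl*rep1*Δ/4NAG, 335, 395 and 316 CPM in WT/4NAG and 279, 258 and 193 CPM in WT/Vec. Yl*ngs1*Δ/4NAG libraries lay far below every wild-type library, and Yl*rep1*Δ/4NAG libraries spread over more than a 10-fold range up to the level of WT/Vec. The fall in Yl*ngs1*Δ/4NAG was -4.45 ± 0.59 (SE), edgeR adjusted p = 0.00428 against WT/4NAG and -3.90 ± 0.58 (SE), edgeR adjusted p = 0.0066 against WT/Vec. Yl*rep1*Δ/4NAG gave -1.92 ± 0.81 (SE), edgeR adjusted p = 0.204 against WT/4NAG with all libraries and -3.33 ± 0.58 (SE), edgeR adjusted p = 0.016 without library 3.

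The gene similar to *SSA3* (*YALI0D22352*), for a heat shock chaperone of the Hsp70 family, had 447, 667 and 1288 CPM in Yl*ngs1*Δ/4NAG, 761, 658 and 1106 CPM in Yl*rep1*Δ/4NAG, 1604, 2070 and 1832 CPM in WT/4NAG and 1152, 1116 and 897 CPM in WT/Vec. All 6 deletion libraries lay below WT/4NAG, with Yl*ngs1*Δ/4NAG library 3 and Yl*rep1*Δ/4NAG library 3 inside or above the range of WT/Vec. It missed the threshold in both strains with all libraries, at -1.13 ± 0.41 (SE), edgeR adjusted p = 0.104 in Yl*ngs1*Δ/4NAG and -1.17 ± 0.23 (SE), edgeR adjusted p = 0.0566 in Yl*rep1*Δ/4NAG. In both strains it passed as lower without library 3. It then gave -1.74 ± 0.26 (SE), edgeR adjusted p = 0.00817 in Yl*ngs1*Δ/4NAG and -1.40 ± 0.19 (SE), edgeR adjusted p = 0.00732 in Yl*rep1*Δ/4NAG. The gene similar to *HSP31* (*YALI0F00682*), for a methylglyoxalase involved in oxidative stress resistance, had 867, 1692 and 2352 CPM in Yl*ngs1*Δ/4NAG, 1722, 876 and 930 CPM in Yl*rep1*Δ/4NAG, 2618, 3149 and 3288 CPM in WT/4NAG and 2069, 2075 and 1809 CPM in WT/Vec. In Yl*rep1*Δ/4NAG library 1 was the highest and libraries 2 and 3 lay together, and no deletion library reached WT/4NAG. Values against WT/4NAG were -0.82 ± 0.39 (SE), edgeR adjusted p = 0.182 in Yl*ngs1*Δ/4NAG and -1.38 ± 0.32 (SE), edgeR adjusted p = 0.0714 in Yl*rep1*Δ/4NAG. The *HSP31*-like gene passed as lower in Yl*ngs1*Δ/4NAG without library 3, at -1.25 ± 0.34 (SE), edgeR adjusted p = 0.0465. In Yl*rep1*Δ/4NAG it still did not pass (edgeR adjusted p = 0.0632).

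Yl*SLP3* (*YALI0F13013*), similar to a stomatin-like membrane protein of *C. albicans* implicated in stress, had its libraries within each strain in the same order as the *HSP31*-like gene. It had 37.4, 92.0 and 110 CPM in Yl*ngs1*Δ/4NAG, 82.1, 39.8 and 59.0 CPM in Yl*rep1*Δ/4NAG, 148, 132 and 140 CPM in WT/4NAG and 100, 86.5 and 92.3 CPM in WT/Vec. Neither strain passed, at -0.75 ± 0.40 (SE), edgeR adjusted p = 0.238 in Yl*ngs1*Δ/4NAG and -1.23 ± 0.29 (SE), edgeR adjusted p = 0.0725 in Yl*rep1*Δ/4NAG. The gene weakly similar to *JID1* (*YALI0E19272*), for a probable Hsp40 co-chaperone, had 50.3, 60.8 and 57.7 CPM in Yl*ngs1*Δ/4NAG, 54.2, 69.6 and 97.5 CPM in Yl*rep1*Δ/4NAG, 107, 139 and 105 CPM in WT/4NAG and 89.9, 95.0 and 82.8 CPM in WT/Vec. It fell in Yl*ngs1*Δ/4NAG at -1.03 ± 0.18 (SE), edgeR adjusted p = 0.0106 with no overlap between Yl*ngs1*Δ/4NAG and the wild type, and gave -0.72 ± 0.22 (SE), edgeR adjusted p = 0.112 in Yl*rep1*Δ/4NAG. Without WT/4NAG library 2 or Yl*ngs1*Δ/4NAG library 1 the *JID1*-like gene no longer passed in Yl*ngs1*Δ/4NAG, where the log2 fold change was -0.90 to -0.88. Leaving out library 3, Yl*SLP3* still passed in neither strain and the *JID1*-like gene did not pass in Yl*rep1*Δ/4NAG.

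**Figure D3:**
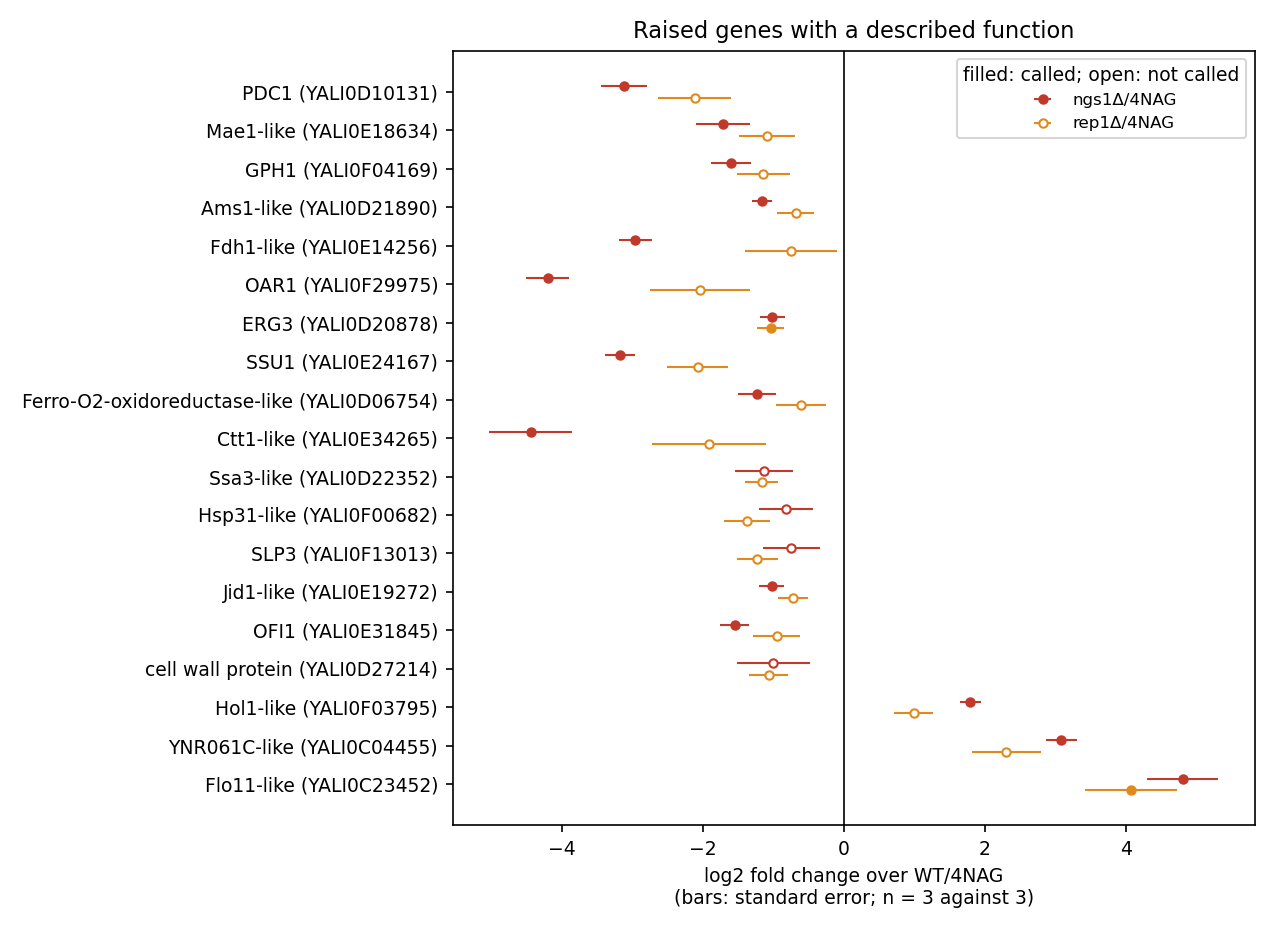
log2 fold change against WT/4NAG of 19 raised genes with a described function, in Yl*ngs1*Δ/4NAG (red) and Yl*rep1*Δ/4NAG (orange), with bars for the standard error and filled points for genes called by edgeR at an adjusted p under 0.05 and a 2-fold change. The 3 genes at the bottom lie right of 0 and the other genes left of it. All 19 carry a description because the study listed them as changed in these deletion libraries. The WT/4NAG libraries also chose them, which favours values left of 0, so the positions are no view of whole functions.

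Yl*OFI1* (*YALI0E31845*), for a putative transcription factor with a zinc finger, was the only gene of the transcription factor list among the raised genes. It had 154, 89.3 and 88.2 CPM in Yl*ngs1*Δ/4NAG, 86.9, 177 and 261 CPM in Yl*rep1*Δ/4NAG, 287, 378 and 304 CPM in WT/4NAG and 255, 262 and 203 CPM in WT/Vec. Yl*ngs1*Δ/4NAG libraries lay below all wild-type libraries, and Yl*rep1*Δ/4NAG library 3 lay just within the range of WT/Vec. It fell in Yl*ngs1*Δ/4NAG at -1.55 ± 0.20 (SE), edgeR adjusted p = 0.00407 against WT/4NAG and -1.08 ± 0.20 (SE), edgeR adjusted p = 0.0148 against WT/Vec, while Yl*rep1*Δ/4NAG gave -0.96 ± 0.34 (SE), edgeR adjusted p = 0.15 against WT/4NAG. The call against WT/Vec was lost without WT/Vec library 1 or 2 or Yl*ngs1*Δ/4NAG library 2 or 3, with a log2 fold change of -1.04 to -0.97 and edgeR adjusted p = 0.0273 to 0.0738. *YALI0A17020*, described by a domain found in Kruppel-like factors, had 232, 233 and 420 CPM in Yl*ngs1*Δ/4NAG, 233, 262 and 474 CPM in Yl*rep1*Δ/4NAG, 702, 795 and 770 CPM in WT/4NAG and 608, 559 and 522 CPM in WT/Vec. Its 6 deletion libraries lay below all wild-type ones, and it fell in Yl*ngs1*Δ/4NAG at -1.31 ± 0.29 (SE), edgeR adjusted p = 0.0237, with -1.28 ± 0.27 (SE), edgeR adjusted p = 0.0581 in Yl*rep1*Δ/4NAG. Without any 1 WT/4NAG library or Yl*ngs1*Δ/4NAG library 2, the call of *YALI0A17020* in Yl*ngs1*Δ/4NAG was lost (edgeR adjusted p = 0.0792 to 0.0957). Yl*OFI1* and *YALI0A17020* passed as lower than WT/4NAG in Yl*rep1*Δ/4NAG too without library 3. They gave -1.37 ± 0.26 and -1.66 ± 0.11 (SE), edgeR adjusted p = 0.0207 and 0.00177.

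Of the genes whose product has no known role, *YALI0E06589* and *YALI0C15466* passed as lower than WT/4NAG in both strains. *YALI0E06589* had 24.1, 66.1 and 76.4 CPM in Yl*ngs1*Δ/4NAG, 54.7, 35.4 and 78.4 CPM in Yl*rep1*Δ/4NAG, 198, 216 and 270 CPM in WT/4NAG and 119, 142 and 128 CPM in WT/Vec. Against WT/4NAG it gave -1.97 ± 0.45 (SE), edgeR adjusted p = 0.0259 in Yl*ngs1*Δ/4NAG and -2.06 ± 0.31 (SE), edgeR adjusted p = 0.0358 in Yl*rep1*Δ/4NAG, and both calls were lost when any WT/4NAG library was left out, that in Yl*ngs1*Δ/4NAG also without Yl*ngs1*Δ/4NAG library 2 (edgeR adjusted p = 0.0782 to 0.0937 in Yl*ngs1*Δ/4NAG and 0.198 to 0.212 in Yl*rep1*Δ/4NAG). *YALI0C15466*, a protein with no similar sequence named, had 12.9, 4.43 and 8.62 CPM in Yl*ngs1*Δ/4NAG, 6.97, 11.4 and 8.11 CPM in Yl*rep1*Δ/4NAG, 28.5, 28.2 and 32.2 CPM in WT/4NAG and 22.5, 23.0 and 18.9 CPM in WT/Vec. In both genes the 6 deletion libraries lay below every WT/Vec library and overlapped each other between the strains. *YALI0C15466* gave -1.78 ± 0.31 (SE), edgeR adjusted p = 0.0109 in Yl*ngs1*Δ/4NAG and -1.81 ± 0.17 (SE), edgeR adjusted p = 0.00969 in Yl*rep1*Δ/4NAG against WT/4NAG, and it was the only gene that passed as lower than WT/Vec in both strains, at -1.28 ± 0.32 (SE), edgeR adjusted p = 0.0366 in Yl*ngs1*Δ/4NAG and -1.30 ± 0.19 (SE), edgeR adjusted p = 0.0358 in Yl*rep1*Δ/4NAG. All these calls of *YALI0C15466* were lost when any wild-type library of the comparison was left out, with edgeR adjusted p = 0.0509 to 0.0544 in Yl*ngs1*Δ/4NAG and 0.101 to 0.106 in Yl*rep1*Δ/4NAG against WT/4NAG and 0.196 to 0.223 in Yl*rep1*Δ/4NAG against WT/Vec. The call in Yl*ngs1*Δ/4NAG against WT/Vec was also lost with the replicate block and without Yl*ngs1*Δ/4NAG library 2 or 3, with a log2 fold change of -1.36 to -0.98 and edgeR adjusted p = 0.0437 to 0.134 where it was lost.

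*YALI0E28259* is described as having some similarity to *YALI0D24816*, and both were raised. *YALI0E28259* had 229, 72.5 and 110 CPM in Yl*ngs1*Δ/4NAG, 81.0, 307 and 303 CPM in Yl*rep1*Δ/4NAG, 770, 995 and 870 CPM in WT/4NAG and 533, 619 and 495 CPM in WT/Vec. *YALI0D24816* had 861, 482 and 546 CPM in Yl*ngs1*Δ/4NAG, 401, 632 and 354 CPM in Yl*rep1*Δ/4NAG, 759, 874 and 963 CPM in WT/4NAG and 585, 657 and 636 CPM in WT/Vec. The pair shared a ratio above 1.3 in wild-type cells, but only *YALI0E28259* lay below the wild type in all 6 deletion libraries. *YALI0E28259* fell in Yl*ngs1*Δ/4NAG at -2.70 ± 0.37 (SE), edgeR adjusted p = 0.00468 and gave -2.02 ± 0.43 (SE), edgeR adjusted p = 0.0599 in Yl*rep1*Δ/4NAG, while *YALI0D24816* gave -0.46 ± 0.19 (SE), edgeR adjusted p = 0.144 in Yl*ngs1*Δ/4NAG and -0.97 ± 0.21 (SE), edgeR adjusted p = 0.06 in Yl*rep1*Δ/4NAG. Leaving out library 3, *YALI0E28259* passed as lower in Yl*rep1*Δ/4NAG too, at -2.29 ± 0.49 (SE), edgeR adjusted p = 0.0279, and *YALI0D24816* passed in neither strain. If reads were shared between the pair in counting, their levels are uncertain. *YALI0E19030*, a short protein with no similar sequence named, and *YALI0C11968* also fell in Yl*ngs1*Δ/4NAG, at -1.60 ± 0.23 (SE), edgeR adjusted p = 0.0055 and -1.74 ± 0.22 (SE), edgeR adjusted p = 0.00342, and so did *YALI0F01408*, similar to a bacterial membrane protein, at -1.64 ± 0.26 (SE), edgeR adjusted p = 0.00794. In Yl*rep1*Δ/4NAG none of these genes passed with all libraries. Without library 3, *YALI0C11968* and *YALI0F01408* passed as lower there and *YALI0E19030* did not. The former gave -1.73 ± 0.31 and -1.64 ± 0.33 (SE), edgeR adjusted p = 0.01655 and 0.0241.

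A few raised genes were higher still in the deletion strains. *YALI0C23452*, similar to the flocculin gene *FLO11* for an adhesive cell surface glycoprotein, had 515, 214 and 117 CPM in Yl*ngs1*Δ/4NAG, 159, 319 and 43.3 CPM in Yl*rep1*Δ/4NAG, 10.3, 8.87 and 10.1 CPM in WT/4NAG and 7.13, 6.62 and 6.69 CPM in WT/Vec. Every deletion library lay above every wild-type one, Yl*ngs1*Δ/4NAG library 1 was the highest and Yl*rep1*Δ/4NAG library 3 the lowest of the 6. It rose in Yl*ngs1*Δ/4NAG at 4.81 ± 0.50 (SE), edgeR adjusted p = 0.00207 and in Yl*rep1*Δ/4NAG at 4.08 ± 0.65 (SE), edgeR adjusted p = 0.0388 against WT/4NAG, far beyond the 1.43-fold difference between WT/4NAG and WT/Vec. The call in Yl*rep1*Δ/4NAG was lost when any WT/4NAG library or Yl*rep1*Δ/4NAG library 2 was left out (edgeR adjusted p = 0.059 to 0.212). *YALI0C04455*, weakly similar to the uncharacterized YNR061C, had 50.6, 69.7 and 66.8 CPM in Yl*ngs1*Δ/4NAG, 58.3, 41.1 and 14.2 CPM in Yl*rep1*Δ/4NAG, 6.71, 7.81 and 8.06 CPM in WT/4NAG and 4.94, 5.17 and 6.39 CPM in WT/Vec. It rose in Yl*ngs1*Δ/4NAG at 3.09 ± 0.22 (SE), edgeR adjusted p = 0.00085, and Yl*rep1*Δ/4NAG gave 2.31 ± 0.49 (SE), edgeR adjusted p = 0.0598, with library 3 again the lowest Yl*rep1*Δ/4NAG library. With that library left out it passed as higher in Yl*rep1*Δ/4NAG too, at 2.70 ± 0.24 (SE), edgeR adjusted p = 0.00243.

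*YALI0F03795*, weakly similar to the transporter gene *HOL1* of the major facilitator superfamily, had 219, 259 and 207 CPM in Yl*ngs1*Δ/4NAG, 152, 181 and 79.2 CPM in Yl*rep1*Δ/4NAG, 59.9, 71.4 and 69.5 CPM in WT/4NAG and 54.1, 48.9 and 43.9 CPM in WT/Vec. It rose in Yl*ngs1*Δ/4NAG at 1.79 ± 0.15 (SE), edgeR adjusted p = 0.00115 and gave 0.99 ± 0.28 (SE), edgeR adjusted p = 0.104 in Yl*rep1*Δ/4NAG. In Yl*rep1*Δ/4NAG without library 3 it passed as higher, at 1.27 ± 0.11 (SE), edgeR adjusted p = 0.00243. *YALI0B03542* had 12.6, 22.2 and 22.5 CPM in Yl*ngs1*Δ/4NAG, 18.9, 16.7 and 24.6 CPM in Yl*rep1*Δ/4NAG, 10.6, 12.3 and 11.8 CPM in WT/4NAG and 9.51, 8.39 and 7.57 CPM in WT/Vec. It passed against WT/Vec in both strains, at 1.24 ± 0.29 (SE), edgeR adjusted p = 0.0277 in Yl*ngs1*Δ/4NAG and 1.24 ± 0.20 (SE), edgeR adjusted p = 0.0431 in Yl*rep1*Δ/4NAG, but in neither against WT/4NAG, at 0.77 ± 0.29 (SE), edgeR adjusted p = 0.11 in Yl*ngs1*Δ/4NAG and 0.75 ± 0.20 (SE), edgeR adjusted p = 0.0891 in Yl*rep1*Δ/4NAG. Both calls against WT/Vec were lost with the replicate block and without any 1 WT/Vec library, and that in Yl*ngs1*Δ/4NAG also without Yl*ngs1*Δ/4NAG library 2 or 3 (edgeR adjusted p = 0.0524 to 0.114 in Yl*ngs1*Δ/4NAG and 0.0648 to 0.223 in Yl*rep1*Δ/4NAG). The remaining genes higher in Yl*ngs1*Δ/4NAG than in WT/Vec were *YALI0D26950*, *YALI0E11847*, *YALI0E28875*, *YALI0F20834* and *YALI0F26543*, besides *YALI0E33891*, with log2 fold changes against WT/Vec between 1.05 ± 0.29 and 1.33 ± 0.27 (SE) for these 5. The calls of these 5 were lost under 1 to 5 of 11 alternative fits each, all of them without WT/Vec library 1. The cell wall protein gene *YALI0D27214*, in contrast, had 1.18, 3.35 and 5.47 CPM in Yl*ngs1*Δ/4NAG, 3.73, 2.64 and 3.89 CPM in Yl*rep1*Δ/4NAG, 6.45, 8.31 and 6.15 CPM in WT/4NAG and 3.33, 4.81 and 4.13 CPM in WT/Vec and passed in neither strain against WT/4NAG, with -1.07 ± 0.27 (SE), edgeR adjusted p = 0.0817 in Yl*rep1*Δ/4NAG. Leaving out library 3, it passed as lower in Yl*rep1*Δ/4NAG alone, at -1.165 ± 0.307 (SE), edgeR adjusted p = 0.0489.

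The spread of these genes within a deletion strain was wide. The highest library was a median of 1.9 times the lowest in Yl*ngs1*Δ/4NAG and 2.03 times in Yl*rep1*Δ/4NAG, against 1.2 times in WT/4NAG and 1.18 times in WT/Vec. Over all genes of at least 5 CPM those medians were 1.45, 1.49, 1.12 and 1.11. More than 2-fold lay between libraries for 49 genes in Yl*ngs1*Δ/4NAG and 56 in Yl*rep1*Δ/4NAG, and for 0 in either wild-type group. Library 3 of Yl*rep1*Δ/4NAG was the highest of the 6 deletion libraries for 49 of the 109 genes and library 3 of Yl*ngs1*Δ/4NAG for 40, whereas Yl*ngs1*Δ/4NAG library 1 was the lowest for 47 and Yl*rep1*Δ/4NAG library 1 for 21. Shares of all genes were not taken for these counts of spread and rank. Summed over the 109 genes, Yl*ngs1*Δ/4NAG libraries held 1.9%, 2.53% and 3.76% of all counts and Yl*rep1*Δ/4NAG libraries 2.57%, 2.16% and 3.66%, against 4.15% to 4.84% in WT/4NAG and 2.84% to 3.24% in WT/Vec. Library 3 of both strains thus lay above WT/Vec and below WT/4NAG, and the other 4 deletion libraries lay below WT/Vec.

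The order of libraries went with the transcript of the deleted gene more often than over all genes. The 3 Yl*ngs1*Δ/4NAG libraries stood in the order of their Yl*NGS1* count for 57 of the 109 genes (52.3%, and 20.5% of all genes of at least 5 CPM), and the library with the most Yl*NGS1* was the highest for 77 (70.6%, and 26% of all). In Yl*rep1*Δ/4NAG the order of Yl*REP1* was met by 28 genes (25.7%, and 10.4% of all), and the library with the most Yl*REP1* was the highest for 68 (62.4%, and 32.1% of all). These are descriptions over 3 libraries each, and the part of remaining wild-type transcript in the levels was not tested.

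**Figure D4:**
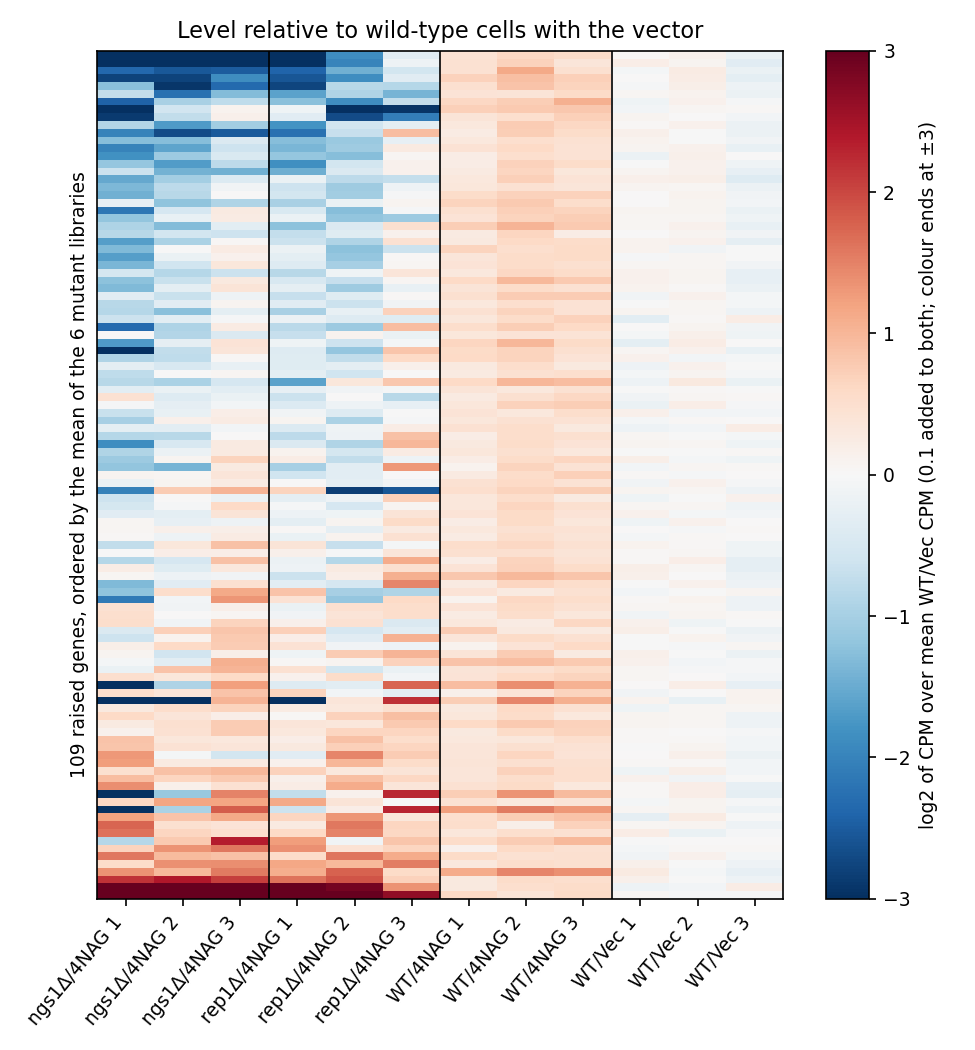
Level of the 109 raised genes (rows, ordered by the mean of the 6 deletion libraries) in the 12 libraries, as log2 of CPM over the mean WT/Vec CPM with 0.1 added to both, blue for lower and red for higher than WT/Vec. Yl*ngs1*Δ/4NAG libraries 1 and 2 and Yl*rep1*Δ/4NAG libraries 1 and 2 are mostly blue, library 3 of both strains is paler or red, and the lowest rows are red in all 6 deletion libraries.

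Some genes split the 6 deletion libraries along another line. *YALI0F25333* had 10.2, 71.1 and 85.6 CPM in Yl*ngs1*Δ/4NAG, 66.2, 5.78 and 6.96 CPM in Yl*rep1*Δ/4NAG, 59.5, 66.5 and 70.3 CPM in WT/4NAG and 44.4, 43.3 and 37.9 CPM in WT/Vec. Yl*ngs1*Δ/4NAG library 1 and Yl*rep1*Δ/4NAG libraries 2 and 3 lay far below WT/Vec, and the other 3 lay in or above the range of WT/4NAG. *YALI0E12507*, related to pirin, a conserved nuclear protein, had 1.52, 16.2 and 26.0 CPM in Yl*ngs1*Δ/4NAG, 22.0, 1.97 and 3.06 CPM in Yl*rep1*Δ/4NAG, 39.7, 41.7 and 42.1 CPM in WT/4NAG and 22.9, 25.0 and 24.6 CPM in WT/Vec, with the same 3 libraries low. *YALI0D16709*, at the edge of the rule, had 24.1, 79.3 and 121 CPM in Yl*ngs1*Δ/4NAG and 99.7, 27.6 and 29.7 CPM in Yl*rep1*Δ/4NAG, with the same 3 libraries low again, against 73.7, 66.7 and 75.7 CPM in WT/4NAG. In *YALI0C00429* the 3 libraries were the high ones, with 51.8, 20.4 and 14.3 CPM in Yl*ngs1*Δ/4NAG and 16.7, 58.1 and 35.7 CPM in Yl*rep1*Δ/4NAG, against 27.1, 33.0 and 28.0 CPM in WT/4NAG and 21.2, 23.5 and 18.6 CPM in WT/Vec. None of these 4 genes passed in either strain; *YALI0F25333* gave -0.15 ± 0.68 (SE), edgeR adjusted p = 0.899 in Yl*ngs1*Δ/4NAG and -1.27 ± 0.91 (SE), edgeR adjusted p = 0.42 in Yl*rep1*Δ/4NAG.

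*YALI0E15147*, raised 1.71-fold in wild-type cells, had 10.2, 32.6 and 95.7 CPM in Yl*ngs1*Δ/4NAG, 45.0, 17.5 and 33.6 CPM in Yl*rep1*Δ/4NAG, 27.4, 31.6 and 37.0 CPM in WT/4NAG and 18.6, 18.9 and 18.8 CPM in WT/Vec. Its Yl*ngs1*Δ/4NAG libraries ran over the whole range of the other groups and beyond it on both sides. *YALI0F18282* had 31.3, 25.8 and 67.9 CPM in Yl*ngs1*Δ/4NAG, 33.1, 34.3 and 52.0 CPM in Yl*rep1*Δ/4NAG, 58.7, 61.7 and 56.1 CPM in WT/4NAG and 35.2, 30.4 and 31.4 CPM in WT/Vec, so that libraries 1 and 2 of both strains stood near WT/Vec and library 3 near WT/4NAG. *YALI0E18788* had 227, 195 and 203 CPM in Yl*ngs1*Δ/4NAG, 140, 251 and 456 CPM in Yl*rep1*Δ/4NAG, 379, 429 and 385 CPM in WT/4NAG and 240, 219 and 194 CPM in WT/Vec. The Yl*ngs1*Δ/4NAG libraries of *YALI0E18788* sat at the level of WT/Vec with little spread, and the difference from WT/4NAG, -0.91 ± 0.11 (SE), edgeR adjusted p = 0.00331, was below the 2-fold threshold. In Yl*rep1*Δ/4NAG *YALI0E18788* gave -0.56 ± 0.36 (SE), edgeR adjusted p = 0.376 against WT/4NAG. Without library 3 it passed as lower there, at -1.10 ± 0.20 (SE), edgeR adjusted p = 0.0172.

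Levels were set between genes on the FPKM scale, which divides by gene length. The *HSP31*-like gene averaged 4008 FPKM in WT/4NAG and 2635 FPKM in WT/Vec, and *YALI0E28259* averaged 3365 FPKM in WT/4NAG and 2103 FPKM in WT/Vec. *YALI0D20526* averaged 4243 FPKM in WT/4NAG and 3077 FPKM in WT/Vec, the highest mean of the 109 genes in WT/4NAG. Of the 5 genes with most reads, 3 have no description, *YALI0E02024*, *YALI0D00451* and *YALI0D07282*. *YALI0E02024* had 1801, 2528 and 3956 CPM in Yl*ngs1*Δ/4NAG, 2539, 1853 and 2767 CPM in Yl*rep1*Δ/4NAG, 3283, 4101 and 3634 CPM in WT/4NAG and 2700, 2729 and 2395 CPM in WT/Vec. *YALI0D00451* had 1332, 2847 and 4113 CPM in Yl*ngs1*Δ/4NAG, 2914, 1393 and 2136 CPM in Yl*rep1*Δ/4NAG, 3227, 3408 and 3040 CPM in WT/4NAG and 2395, 2274 and 2028 CPM in WT/Vec. *YALI0D07282* had 970, 1623 and 2573 CPM in Yl*ngs1*Δ/4NAG, 1730, 1191 and 3077 CPM in Yl*rep1*Δ/4NAG, 1935, 2231 and 2045 CPM in WT/4NAG and 1496, 1607 and 1394 CPM in WT/Vec. In these 3 genes the deletion libraries spread over most of the wild-type range or beyond it, and their log2 fold changes against WT/4NAG were -0.36 ± 0.33, -0.16 ± 0.41 and -0.21 ± 0.37 (SE) in Yl*ngs1*Δ/4NAG and -0.66 ± 0.21, -0.60 ± 0.30 and -0.09 ± 0.33 (SE) in Yl*rep1*Δ/4NAG, none of which passed.

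Both deletion strains were also set against each other, a comparison in which no library had helped to choose the genes. Between Yl*ngs1*Δ/4NAG and Yl*rep1*Δ/4NAG, 0 of the 109 genes passed in either direction by edgeR or by DESeq2 (beside 0% of all genes tested). At an unadjusted p under 0.05 and any fold, 1 gene was higher (beside 0.632%) and 4 were lower (beside 0.549%) in Yl*ngs1*Δ/4NAG, and the median log2 fold change was 0.01. Libraries did not overlap for 2 genes higher in Yl*ngs1*Δ/4NAG (beside 1.96% of all genes) and for 0 lower (beside 2.36%). The lowest values of Yl*ngs1*Δ/4NAG against Yl*rep1*Δ/4NAG were those of the *CTT1*-like gene, -2.55 ± 1.01 (SE), edgeR adjusted p = 1, the *FDH1*-like gene, -2.24 ± 0.76 (SE), edgeR adjusted p = 1, and Yl*OAR1*, -2.19 ± 0.82 (SE), edgeR adjusted p = 1. The highest was *YALI0F25333*, 1.10 ± 1.15 (SE), edgeR adjusted p = 1. With standard errors of this size, these tests do not show that the strains acted alike on the 109 genes.

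By description, the raised genes were spread over many functions. Of all 391 described genes of at least 5 CPM, 39 were raised (9.97%) and 22 lowered (5.63%). Of 16 measured genes of the chaperone and stress list, 5 were raised and 1 lowered by the rule, with a list median log2 ratio of WT/4NAG over WT/Vec of 0.22, beside -0.00073 over the described genes and -0.03 over all genes of at least 5 CPM. For oxidoreductases it was 5 raised and 8 lowered of 38, for transport 4 and 5 of 70, for proteases 3 and 3 of 38, for the cell wall 3 and 1 of 25, and for lipid metabolism 2 and 2 of 14. The raised shares of transport (5.71%) and of proteases (7.89%) lay below that of all described genes. Of the central carbon list 2 of 7 were raised, Yl*PDC1* and the *MAE1*-like gene, and 0 were lowered. The iron, heme, copper and sulfur list had 2 raised and 1 lowered of 14, amino acid metabolism 0 and 1 of 12, transcription factors 1 and 0 of 18, and ribosome and translation 1 and 0 of 7, that 1 being the *SSA3*-like gene by the wording of its description. Of 5 measured genes whose description names GlcNAc or glucosamine, 0 were raised and 0 lowered. The lists hold only genes that the study described because they changed in a deletion strain, so these counts are no view of whole pathways.

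Positions within chromosomes were compared only through neighbouring names, and raised genes occurred on every chromosome letter. By the chromosome letter of the systematic name, they made up between 1.23% (10 genes on B) and 2.41% (30 genes on E) of the genes of at least 5 CPM, with 7 on A, 14 on C, 23 on D and 25 on F. Neighbouring names in the tables occurred in 3 pairs, *YALI0A17020* with *YALI0A17039*, the *SSA3*-like gene *YALI0D22352* with *YALI0D22396*, and the cell wall protein gene *YALI0D27214* with *YALI0D27236*.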

How the data were processed

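RNA-Seq libraries of 12 samples were compared. Raw read counts for each gene, as the authors deposited them, were tested unchanged, and the FPKM values that the authors deposited beside them served only for levels between genes. Per the labels, Cufflinks 2.2.1 and TopHat2 2.1.1 were used, with a mouse assembly given as the build. For read counting, the program, strand setting and annotation were not given in the sources used here. A gene that a table did not list was taken as 0, which touched 0 of the 109 raised genes. All 12 count columns were mapped by their names.

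Groups of 3 were compared in edgeR 4.0.16 (R 4.3.3; quasi-likelihood test, TMM, filterByExpr) over the whole table. A call needed a Benjamini-Hochberg adjusted p under 0.05 over all genes tested and at least a 2-fold change, the thresholds of the study's methods. Alternatives were DESeq2 1.42.0, its size factors, no filter on low counts, no fold threshold, all 12 libraries in one fit, the replicate number as a block, and leaving out each library. WT/4NAG and WT/Vec libraries of the same number deviated together (r = 0.114, 0.144 and 0.166), so their numbers may pair them. No test of that contrast is reported, since the rule used it. The fit was tested on simulated data. The rule for the raised genes, the gene lists and the alternatives were chosen with earlier results of these data known.

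Genes were named by rule: the 15 highest ratios, the 5 highest levels, the 5 lowest and 5 highest log2 fold changes in each comparison of a deletion strain with wild type carrying 4NAG and between the strains, genes the study names, and the 3 genes on either side of the ratio. Genes singled out beyond it, for a call, a pattern over libraries or a described function, were chosen after their values were seen. Lists were made by words in the study's gene descriptions.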

Additional observations from a re-analysis of the deposited data

How the results depend on the processing

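Numbers of raised genes called in the deletion strains moved with the fit, most of all in Yl*rep1*Δ. For genes below WT/4NAG in Yl*rep1*Δ (3 as reported), DESeq2 gave 20, any fold 5, a single fit over all 12 libraries 9 and the replicate block 9, and leaving out 1 library gave between 0 and 36. For genes higher there (1), DESeq2 gave 2, the single fit 2 and leaving out 1 library 0 to 3. For genes below WT/4NAG in Yl*ngs1*Δ (22), leaving out 1 library gave 12 to 41, and for genes higher (3) it gave 3 to 6. Against the vector, genes lower in Yl*rep1*Δ (1) numbered 5 with DESeq2, 2 in the single fit and 0 to 9 without 1 library, and genes higher (4) numbered 2 with the replicate block and 0 to 8 without 1 library. Against the vector, genes lower in Yl*ngs1*Δ (10) numbered 5 to 19 without 1 library, and genes higher (10) numbered 16 at any fold and 4 to 13 without 1 library. The counts between the deletion strains stayed at 0 under all 12 alternatives. For most of these fits the share of all genes was not taken, so whether other genes moved alike is not shown. Why the counts moved was not tested.

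The number of raised genes (109) became 28 at a ratio of at least 1.5, and 95 to 145 when 1 wild-type library was left out. Replicate numbers did not pair deletion libraries with wild-type ones (r between -0.276 and 0.0615), nor the deletion strains with each other (r = -0.662, -0.592 and 0.199), so the replicate block is only an alternative; it kept every other count within 1.5 times. The part of depth in these counts was not tested. Between replicates, chi-square per degree of freedom of the counts was 60.4 to 417 in Yl*ngs1*Δ and 173 to 313 in Yl*rep1*Δ, against 7.27 to 14.2 in the wild-type groups.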
